A study of Mus musculus with 4 samples.

Results

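A set of 9 genes of peripheral sensory neurons was followed in RNA of mouse embryonic skull vault (calvaria). They are the homeodomain factors Isl1, Pou4f1, Tlx3 and Drgx, the actin-binding protein gene Avil, the sodium channel genes Scn9a, Scn10a and Scn11a, and the heat- and capsaicin-gated channel gene Trpv1. The 9 symbols matched 9 of the 55487 gene IDs of the count table through the GENCODE annotation of GRCm38, where Drgx is listed under its other symbol Prrxl1. The genes were selected on their lower level in frontal in these same libraries, so that difference is given below as a description and nothing is read from it. Poly(A) RNA came from tissue of stage E14.5. There were 2 libraries of the frontal bone of the calvaria, and 2 libraries in which the parietal and interparietal bones were combined. Strain, sex, treatment, the number of embryos per library and whether replicate libraries are from different animals are not given in the labels, so the p-values rest on a spread between samples that may be technical.

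Sensory neurons of the head have their cell bodies in cranial ganglia such as the trigeminal ganglion, and their axons reach the skin, the dura and the tissue around the skull bones. In these neurons Isl1 and Pou4f1 act together to end the neurogenic programme and to start sensory differentiation, and Tlx3 and Drgx act in the nociceptors and in the relay neurons of the hindbrain and spinal cord to which they connect. Nociceptors then switch on the sodium channels encoded by Scn9a, Scn10a and Scn11a, of which the first is blocked by tetrodotoxin and the other two are resistant to it, and a part of them switch on Trpv1. Several of these genes have other sites of expression as well, Isl1 in motor neurons, striatum and hypothalamus, Pou4f1 in midbrain and retina, Tlx3 and Drgx in the hindbrain, and Scn9a in autonomic neurons.

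The 250 bases upstream of the RefSeq start site are shown for the 3 sodium channels, whose fold changes span the range of the 9 genes, and for Avil, which had a motif match close to its start. All 9 genes had a window in the RefSeq table (GRCm38). For Scn10a, Scn11a and Trpv1 the sequence after the RefSeq start was not found unbroken in any GENCODE transcript of the gene. The windows of Scn10a and Drgx lie inside the GENCODE span of their genes, so those bases are not upstream of every annotated start. Capitals mark matches to 4 motifs that were searched on both strands. The windows shown are chr2:66634963-66635212 for Scn9a, chr9:119719033-119719282 for Scn10a and chr9:119825457-119825706 for Scn11a, all on the minus strand, and chr10:127000459-127000708 on the plus strand for Avil.
Scn9a: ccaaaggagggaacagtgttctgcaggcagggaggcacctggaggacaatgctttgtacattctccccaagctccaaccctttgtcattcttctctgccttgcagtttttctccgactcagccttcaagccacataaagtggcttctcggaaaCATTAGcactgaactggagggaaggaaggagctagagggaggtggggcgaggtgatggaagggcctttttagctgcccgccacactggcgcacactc
Scn10a: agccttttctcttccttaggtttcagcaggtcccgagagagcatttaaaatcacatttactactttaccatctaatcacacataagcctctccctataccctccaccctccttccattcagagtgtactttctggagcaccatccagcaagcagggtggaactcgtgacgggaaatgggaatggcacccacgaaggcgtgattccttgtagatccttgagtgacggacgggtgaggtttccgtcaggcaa
Scn11a: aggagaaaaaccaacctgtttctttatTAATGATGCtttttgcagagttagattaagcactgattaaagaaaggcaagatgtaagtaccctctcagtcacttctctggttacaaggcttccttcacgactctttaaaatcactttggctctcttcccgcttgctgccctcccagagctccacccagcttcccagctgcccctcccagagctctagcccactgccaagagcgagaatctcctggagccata
Avil: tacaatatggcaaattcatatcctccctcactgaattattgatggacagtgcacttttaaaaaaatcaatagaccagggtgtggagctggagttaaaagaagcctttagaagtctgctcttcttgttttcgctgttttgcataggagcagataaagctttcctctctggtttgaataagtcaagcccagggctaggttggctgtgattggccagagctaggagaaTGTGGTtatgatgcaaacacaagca

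The motifs, chosen after their matches in these windows had been seen, were TAATTA (a homeodomain core), CTAATG (a LIM homeodomain type, as for ISL1), GCATNATTA (a POU4F type) and TGTGGT (a RUNX core). GCATNATTA contains TAATTA where its N is A, and no other of the 4 can lie within another. The Scn11a window held GCATNATTA once, on the reverse strand, and 0.478% of all 32851 windows held it. TAATTA was not within that match. The Scn9a window held CTAATG once, also on the reverse strand, and 6.36% of windows held it. TGTGGT lay in the windows of Drgx, Avil and Trpv1 and in 14.0% of all windows. TAATTA, found in 4.84% of windows, was in none of the 9, and the windows of Isl1, Pou4f1, Tlx3 and Scn10a held none of the 4 motifs. The windows differed in base composition. Those of Pou4f1 and Isl1 had 78.0% and 71.2% G and C, with 47 and 33 CpG dinucleotides, and that of Avil had 42.0% and 1 CpG, where the median window had 52.4% and 6 CpG.

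Libraries held 24069177 to 35555013 gene counts. Values are given as counts and as CPM, edgeR's unit of counts scaled to a common library size, after correction of library sizes by TMM, the trimmed mean of M-values. A count of 3 corresponded to 0.0852 to 0.123 CPM in the 4 libraries. The 9 genes together took 1515 and 1890 counts in frontal libraries 1 and 2, against 3849 and 4324 counts in parietal-interparietal libraries 1 and 2. Summed, they reached 52.7 and 53.7 CPM in frontal, against 157 and 159 CPM in parietal-interparietal tissue. All 9 passed the filter on low counts, and for all 9 both frontal libraries lay below both parietal-interparietal libraries. Over all 20947 genes tested this held for 28.4%, and nothing is read from the count for the 9, which were chosen on this contrast. The fold by which the 9 were lower in frontal ranged from 1.86 for Scn9a to 4.86 for Scn11a, with a median log2 fold change of −1.79, where the median over all genes tested was 0.01. In bulk tissue, fewer sensory neurons or fibres, less RNA of these genes per neuron, and less other tissue expressing them cannot be told apart.

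**Figure D1:**
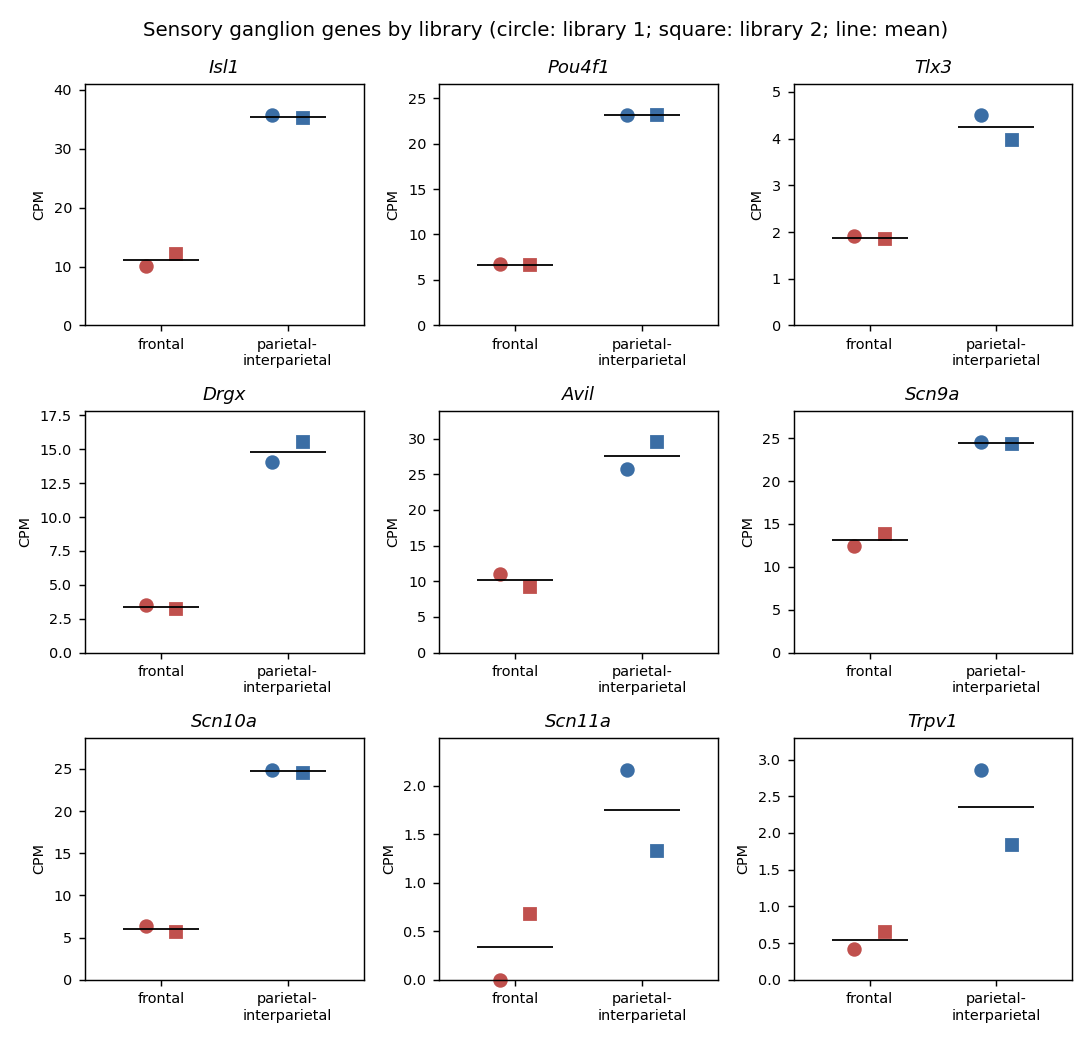
Level in CPM (y axis, linear from 0, its own scale in each panel) of the 9 sensory ganglion genes in frontal (left) and parietal-interparietal (right) libraries, with 1 point per library and a line at the mean. For every gene both frontal points lie below both parietal-interparietal points, and Scn11a is at 0 in frontal library 1.

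Among the transcription factors, Isl1, a LIM homeodomain factor (ENSMUSG00000042258, chromosome 13, 116298281 to 116309689, minus strand), had 292 and 424 counts in frontal, against 872 and 955 in parietal-interparietal tissue. These are 10.2 and 12.0 CPM in frontal, against 35.7 and 35.2 CPM in parietal-interparietal. The frontal libraries were low and the groups did not overlap, with a log2 fold change of −1.67 ± 0.13 (SE) between group means of 11.1 ± 1.33 and 35.4 ± 0.347 CPM (SD, n = 2 each). Pou4f1, a POU homeodomain factor also called Brn3a (ENSMUSG00000048349, chromosome 14, 104461676 to 104467999, minus strand), had 193 and 233 counts, or 6.71 and 6.62 CPM, in frontal and 565 and 627 counts, or 23.1 and 23.1 CPM, in parietal-interparietal libraries. Libraries of a group differed little for this gene, and its log2 fold change was −1.79 ± 0.14.

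Drgx, a paired-class homeodomain factor needed by nociceptors and their spinal targets (ENSMUSG00000041730, chromosome 14, 32599407 to 32649246, plus strand), was at 3.55 and 3.21 CPM (102 and 113 counts) in frontal libraries and at 14.0 and 15.5 CPM (343 and 421 counts) in parietal-interparietal libraries. Its log2 fold change of −2.13 ± 0.18 was the largest in size among the 4 factors. Tlx3, a homeodomain factor that favours glutamatergic over GABAergic fate in dorsal relay neurons (ENSMUSG00000040610, chromosome 11, 33200752 to 33203589, minus strand), was at 1.91 and 1.85 CPM (55 and 65 counts) in frontal and 4.50 and 3.98 CPM (110 and 108 counts) in parietal-interparietal libraries. With a log2 fold change of −1.17 ± 0.30 it had the smallest difference of the 4. The ratio of Tlx3 to Drgx in FPKM (CPM per kilobase of exon) was 1.47 and 1.57 in frontal and 0.873 and 0.698 in parietal-interparietal libraries. The same ratio of Isl1 to Pou4f1 was 1.79 and 2.15 in frontal and 1.82 and 1.80 in parietal-interparietal libraries, so these values overlapped between the groups.

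Avil encodes advillin, an actin-regulating protein of the gelsolin family that in ganglia marks sensory neurons (ENSMUSG00000025432, chromosome 10, 127000709 to 127020994, plus strand). It had 318 and 323 counts, or 11.1 and 9.17 CPM, in frontal and 628 and 800 counts, or 25.7 and 29.5 CPM, in parietal-interparietal libraries. The groups did not overlap, at a log2 fold change of −1.45 ± 0.15. Exons of Tsfm on the other strand cover 165 bases, or 4.86%, of Avil's exons, and since the strand setting of the counting is not given in the sources used here, reads there cannot be assigned to one gene.

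The 3 sodium channel genes had unlike fold changes. Scn9a (ENSMUSG00000075316, chromosome 2, 66480080 to 66634962, minus strand) was at 12.4 and 13.8 CPM (358 and 487 counts) in frontal and 24.5 and 24.4 CPM (599 and 661 counts) in parietal-interparietal libraries, a log2 fold change of −0.89 ± 0.13. Scn10a (ENSMUSG00000034533, chromosome 9, 119608456 to 119719322, minus strand) was at 6.43 and 5.62 CPM (185 and 198 counts) in frontal and 24.9 and 24.5 CPM (609 and 666 counts) in parietal-interparietal libraries, a log2 fold change of −2.04 ± 0.14. The pair was therefore at like CPM in the parietal-interparietal libraries, while in the frontal libraries Scn10a was the lower. Per kilobase of exon the ratio of Scn9a to Scn10a was 1.21 and 1.53 in frontal and 0.613 and 0.619 in parietal-interparietal libraries. A difference between the fold changes of these 2 genes was not tested. The antisense gene Gm13629 covers 180 bases, or 1.41%, of Scn9a's exons.

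Scn11a, the neighbour of Scn10a on chromosome 9 (ENSMUSG00000034115, 119753759 to 119825456, minus strand), was near the limit of detection. It had 0 and 24 counts, or 0 and 0.682 CPM, in frontal and 53 and 36 counts, or 2.17 and 1.33 CPM, in parietal-interparietal libraries. The frontal libraries disagreed, a count of 0 in library 1 allowing up to 0.104 CPM (3 counts), and the log2 fold change of −2.28 carried an SE of 0.94. Without frontal library 2 the fitted value was −8.55, which depends on the prior count and is no measure of size. Trpv1 (ENSMUSG00000005952, chromosome 11, 73234292 to 73261242, plus strand) had 12 and 23 counts, or 0.417 and 0.653 CPM, in frontal and 70 and 50 counts, or 2.86 and 1.84 CPM, in parietal-interparietal libraries. The groups did not overlap, with a log2 fold change of −2.11 ± 0.49.

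For genes other than the 9, a gene was called where its adjusted p was under 0.05 in edgeR's quasi-likelihood test over the whole table. Of all 20947 genes tested 6.44% were called lower in frontal and 6.25% higher, 12.7% in all. Scaled by total counts alone, 1606 genes were lower and 984 higher, against 1348 and 1309 with TMM.

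Levels of different genes were compared in FPKM. In the frontal libraries the order of the group means was Avil (2.98 ± 0.392), Isl1 (2.80 ± 0.337), Pou4f1 (1.43 ± 0.0142), Tlx3 (1.23 ± 0.0307), Scn9a (1.03 ± 0.0765), Drgx (0.810 ± 0.0572), Scn10a (0.757 ± 0.0719), Trpv1 (0.145 ± 0.0453) and Scn11a (0.0575 ± 0.0813; SD, n = 2). In the parietal-interparietal libraries it was Isl1 (8.95 ± 0.0875), Avil (8.12 ± 0.787), Pou4f1 (4.95 ± 0.00221), Drgx (3.54 ± 0.251), Scn10a (3.10 ± 0.0335), Tlx3 (2.77 ± 0.240), Scn9a (1.91 ± 0.00847), Trpv1 (0.639 ± 0.196) and Scn11a (0.366 and 0.224 in its libraries). In frontal the libraries of Isl1 and Avil overlapped, as did those of Drgx and Scn10a and those of Trpv1 and Scn11a. In parietal-interparietal libraries Isl1 and Avil came within their spread of each other. Isl1 took 22.8% and 27.1% of the summed FPKM of the 9 genes in frontal and 26.5% and 25.7% in parietal-interparietal libraries, so the shares of this gene overlapped between the groups. Scn9a took more of that sum in frontal, 8.66% and 9.66%, than in parietal-interparietal libraries, 5.64% and 5.52%, and Scn10a less, 7.18% and 6.30% in frontal and 9.20% and 8.92% in parietal-interparietal libraries. By FPKM Isl1 stood at percentiles 47.8 and 51.1 of detected protein-coding genes in frontal and 75.6 and 75.2 in parietal-interparietal libraries.

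**Figure D2:**
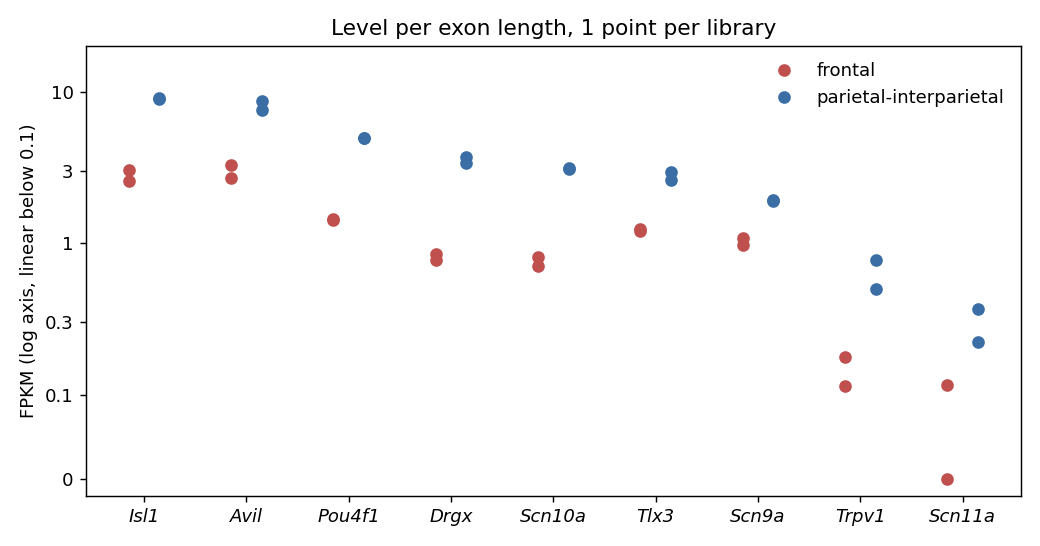
FPKM (y axis, logarithmic above 0.1 and linear below) of the 9 genes, ordered by their parietal-interparietal mean, with 1 point per frontal library (red, left of each pair) and parietal-interparietal library (blue, right). Isl1 and Avil are highest in both groups, and Scn9a, low in the order of the parietal-interparietal libraries, exceeds Drgx and Scn10a in the frontal libraries.

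Among the other sodium channel genes Scn7a and Scn3b were lower in frontal and the rest were not called. Of 11 pore-forming and auxiliary subunits tested, 2 fell and 0 rose in frontal libraries, and their median log2 fold change was −0.18. With the parietal-interparietal pair summed or either of its libraries left out 1 fell, Scn7a, and 4 fell without either frontal library or when scaled by total counts alone. Scn7a, the atypical sodium-sensing channel next to Scn9a on chromosome 2, was lower, with 3.30 ± 0.480 CPM in frontal, against 8.10 ± 0.524 CPM in parietal-interparietal tissue (SD, n = 2 each), a log2 fold change of −1.29 ± 0.23 with an adjusted p of 0.00496 in edgeR. Scn3b, an auxiliary subunit, fell by 0.45 on the log2 scale (adjusted p = 0.0156 with edgeR), a call that did not hold when either parietal-interparietal library was left out. The brain channels of the cluster on chromosome 2 gave no call. Scn3a, Scn2a and Scn1a had log2 fold changes of −0.41 ± 0.13, 0.08 ± 0.21 and −0.13 ± 0.31. Of the sequence windows of 50 bases in Scn9a's transcripts, 4.16% also occur in transcripts of another gene, most often Scn3a. For Scn10a the share was 1.66%, and for Scn11a, Trpv1, Isl1, Tlx3 and Drgx it was 0.

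Among other genes of sensory neurons most were not called, and more were called lower in frontal than higher. The gene lists were chosen with earlier results of these data known, so their counts are given as a description. Of all genes tested 6.44% were called lower and 6.25% higher. In 5 lists with 80 genes, none of them among the 9, 75 were tested. Of these 28 were called lower, 3 higher and 44 not called, with a median log2 fold change of −0.33. With the parietal-interparietal pair summed 16 were lower, and without parietal-interparietal library 1 or 2 the number was 14 or 19. The calls of 14 of the 28 held in every alternative. Of 22 transcription factors, 7 fell and 3 rose, with a median of −0.45, where 2 fell with the pair summed or without parietal-interparietal library 1, 3 fell without library 2, and 5 rose without frontal library 2. Prdm12, a factor required for nociceptors to form, was at 2.50 ± 0.490 in frontal, against 8.95 ± 0.251 CPM in parietal-interparietal tissue (SD, n = 2 each), a log2 fold change of −1.84 ± 0.24 with an adjusted p of 0.000923 in edgeR. Runx1 and Runx3, which set nociceptor and proprioceptor subtypes, fell by 0.62 and 1.32, and neither call held with the pair summed or when parietal-interparietal library 1 was left out. Maf, a factor of touch receptors also found in many other tissues, fell by 0.67 and Ebf3 fell by 0.50, a call that did not hold when either parietal-interparietal library was left out. Runx1, Runx3 and Maf were chosen after their values were seen. The 3 that rose were Neurog2 (log2 fold change 3.79 ± 0.20), Neurod1 (1.95 ± 0.20) and Scrt2 (1.12 ± 0.19), neurogenic genes that cortical precursors also express. For the genes of the 5 lists that fell, the cells that expressed them are not known from bulk tissue either. The paralogs Pou4f2 and Pou4f3 were not called, at 0.824 ± 0.280 and 1.11 ± 0.284 CPM in frontal and 2.18 ± 0.792 and 2.06 ± 0.153 CPM in parietal-interparietal libraries.

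Of the neurotrophic factor receptors 5 of 8 fell and 0 rose, with a median of −0.79, and 3 fell with the pair summed or without parietal-interparietal library 1. Ngfr, the shared neurotrophin receptor, was at 48.2 and 44.6 CPM in frontal, against 87.0 and 82.9 CPM in parietal-interparietal tissue (log2 fold change −0.87 ± 0.09, edgeR adjusted p = 0.000331). Gfra2, a coreceptor for neurturin, fell by 0.75, a call that did not hold with the pair summed or when parietal-interparietal library 1 was left out. Ntrk2 and Ntrk3, receptors of touch and proprioceptive neurons that brain cells express as well, were not called, at −0.13 ± 0.09 and 0.32 ± 0.10. In some alternatives, among them no filter on low counts, halved counts and the replicate block, 1 of the 8 receptors was called higher. Ntrk3 alone among them had a positive log2 fold change in the main fit.

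Of 17 tested genes of neuropeptides and peripheral neuron proteins 11 fell and 0 rose, with a median of −0.86. Without parietal-interparietal library 1 the number that fell was 7, and without frontal library 2, 3 rose. Gal, which encodes galanin, was at 4.88 ± 0.431 in frontal, against 13.0 ± 0.159 CPM in parietal-interparietal tissue (SD, n = 2 each), a log2 fold change of −1.42 ± 0.17 with an adjusted p of 0.000738 in edgeR. The neurofilament genes Nefm and Nefl fell by 1.17 and 1.28, and Prph, the intermediate filament of peripheral neurons, fell by 0.87. The pan-neuronal tubulin Tubb3 was not called, at 196 and 160 CPM in frontal, against 167 and 173 CPM in parietal-interparietal tissue, and was called higher without frontal library 2. Stmn2, a growth-cone protein of all neurons, fell by 0.33, and that call was lost without either parietal-interparietal library. Set against Stmn2 in FPKM, Isl1 had a ratio of 0.101 and 0.110 in frontal and 0.273 and 0.264 in parietal-interparietal libraries. For Scn10a it was 0.0318 and 0.0254 in frontal and 0.0947 and 0.0915 in parietal-interparietal libraries. Isl1 and Scn10a were selected on their lower level in frontal, so lower ratios follow from that choice. Nothing is read from them.

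Of 17 tested channels and receptors 3 fell and 0 rose, with a median of −0.27, and 1 fell, P2rx3, with the pair summed or without either parietal-interparietal library. P2rx3, the ATP-gated channel of nociceptors, was at 8.17 and 6.59 CPM in frontal, against 16.9 and 16.8 CPM in parietal-interparietal tissue (log2 fold change −1.20 ± 0.16, edgeR adjusted p = 0.00117). The potassium channel Kcnk2 and the touch channel Piezo2 fell by 0.63 and 0.33, both calls being lost without either parietal-interparietal library, and that of Piezo2 also with DESeq2. Among genes of nociceptor subtypes, Mrgprd, a receptor of skin nociceptors, had no count in any library, and the cold receptor Trpm8 was at 0 in both frontal libraries, against 0.0409 and 0.221 CPM in parietal-interparietal tissue. Only stage E14.5 was sampled, so such low values do not show which subtypes form later. Trpa1, the irritant receptor, was not called, at 2.43 and 0.909 CPM in frontal, against 0.900 and 0.737 CPM in parietal-interparietal tissue.

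**Figure D3:**
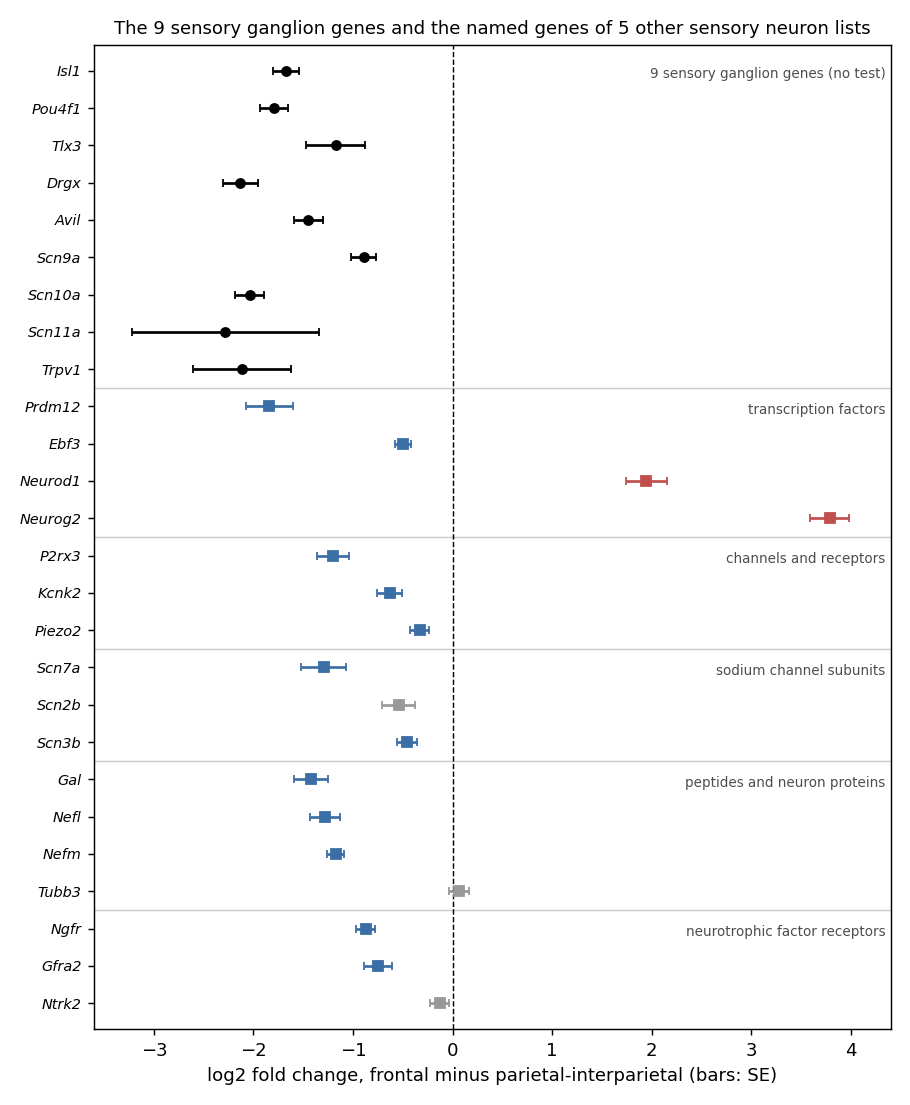
Log2 fold change, frontal minus parietal-interparietal (x axis), with its SE for the 9 sensory ganglion genes (black circles) and for the named genes of 5 other lists of sensory neuron genes (squares: blue called lower, red called higher, grey not called). The 9 genes lie between −2.28 and −0.89, Prdm12 at −1.84 is the lowest of the squares, and Neurog2 and Neurod1 lie to the right.

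Genes of other cell types that could carry the 9 genes or accompany sensory axons also differed between the groups, and their part in the values above was not tested. Of 12 autonomic neuron genes 5 fell and 1, Hand2, rose in frontal. The Hand2 call did not hold when scaled by total counts alone, with the parietal-interparietal pair summed or without parietal-interparietal library 1. The summed level of the 12 genes was 57.0 and 67.3 CPM in frontal, against 107 and 103 CPM in parietal-interparietal tissue. Gata3 and the catecholamine enzyme gene Th fell by 1.63 and 1.37. Of 15 genes of Schwann and satellite glia 7 fell and 1 rose, with summed levels of 511 and 563 CPM in frontal, against 707 and 707 CPM in parietal-interparietal tissue. Fbln2 and Pmp22 were the largest parts of the glial sum, which therefore mainly follows these 2 genes. Fbln2 was at 157 and 162 CPM in frontal and 198 and 197 CPM in parietal-interparietal libraries. Pmp22 was at 141 and 157 CPM in frontal and 204 and 210 CPM in parietal-interparietal libraries. With the parietal-interparietal pair summed or either of its libraries left out 3 autonomic and 2 glial genes fell, whereas 9 autonomic genes fell without frontal library 2 and 11 glial genes without frontal library 1. The glial factor Sox10 was not called, at −0.37 ± 0.13. Motor neuron genes gave 0 calls in edgeR among 5 tested of 9, with 0 at an unadjusted p under 0.05, and 0 calls in DESeq2, but 1 was called lower without frontal library 2. Their defining factor Mnx1 had no count in any library. Apart from Mecom, the tested motor neuron genes had group means of only 0.199 to 1.44 CPM. The SEs of their log2 fold changes were 0.53 to 1.12, so the lack of calls does not show that the groups were alike.

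Genes of brain regions and of other tissues of the head went in both directions. All 10 cerebral cortex genes rose in frontal libraries, where their summed level was 409 and 452 CPM, against 91.5 and 89.9 CPM in parietal-interparietal libraries. With the pair summed 8 of them rose. Of 11 tested genes of midbrain and isthmus 7 fell and 0 rose, and their summed level was 32.6 and 39.3 CPM in frontal, against 77.2 and 87.4 CPM in parietal-interparietal tissue. En2, a factor of the midbrain-hindbrain boundary, fell by 4.09 on the log2 scale. Of 11 inner ear genes 7 fell and 0 rose (141 and 131 CPM summed in frontal, 253 and 249 CPM in parietal-interparietal). Oc90 and Gjb2 were the largest parts of that sum, which therefore mainly follows these 2 genes. Oc90 was at 63.7 and 57.7 CPM in frontal and 90.5 and 87.0 CPM in parietal-interparietal libraries. Gjb2 was at 41.0 and 41.0 CPM in frontal and 77.1 and 77.8 CPM in parietal-interparietal libraries. Of 12 tested genes of the dorsal hindbrain and spinal cord 1 fell, Barhl1, and 0 rose (32.6 and 30.5 CPM summed in frontal, 57.7 and 55.1 CPM in parietal-interparietal). The number that fell in that hindbrain and cord list was 4 with no filter on low counts and 3 with DESeq2's size factors, halved counts or the replicate block. It was 2 when scaled by total counts alone, and it was above 1 also without either frontal library. Of 5 tested retinal ganglion cell genes 0 fell and Six6 rose, with summed levels of 24.5 and 28.4 CPM in frontal, against 28.9 and 29.1 CPM in parietal-interparietal tissue. Rbpms made up most of that sum, at 20.1 and 22.4 CPM in frontal and 27.2 and 25.7 CPM in parietal-interparietal libraries. Of the 8 genes listed, 1 was at 0 in all libraries. Of 8 tested striatal and hypothalamic genes Ebf1 and Foxp1 fell and 0 rose (264 and 254 CPM summed in frontal, 316 and 317 CPM in parietal-interparietal). These 2 genes were also the largest parts of that sum. Foxp1 was at 94.1 and 92.9 CPM in frontal and 123 and 128 CPM in parietal-interparietal libraries. Ebf1 was at 70.9 and 71.7 CPM in frontal and 97.3 and 96.6 CPM in parietal-interparietal libraries. Of the 12 genes listed, 4 were too low to be tested. The calls of Six6, Ebf1 and Foxp1 did not hold when either parietal-interparietal library was left out. The bone named by the labels was represented by 15 osteoblast and calvarial mesenchyme genes, all detected, of which 2 rose and 5 fell. With the pair summed or without parietal-interparietal library 2, 3 fell, and without either frontal library 4 rose.

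**Figure D4:**
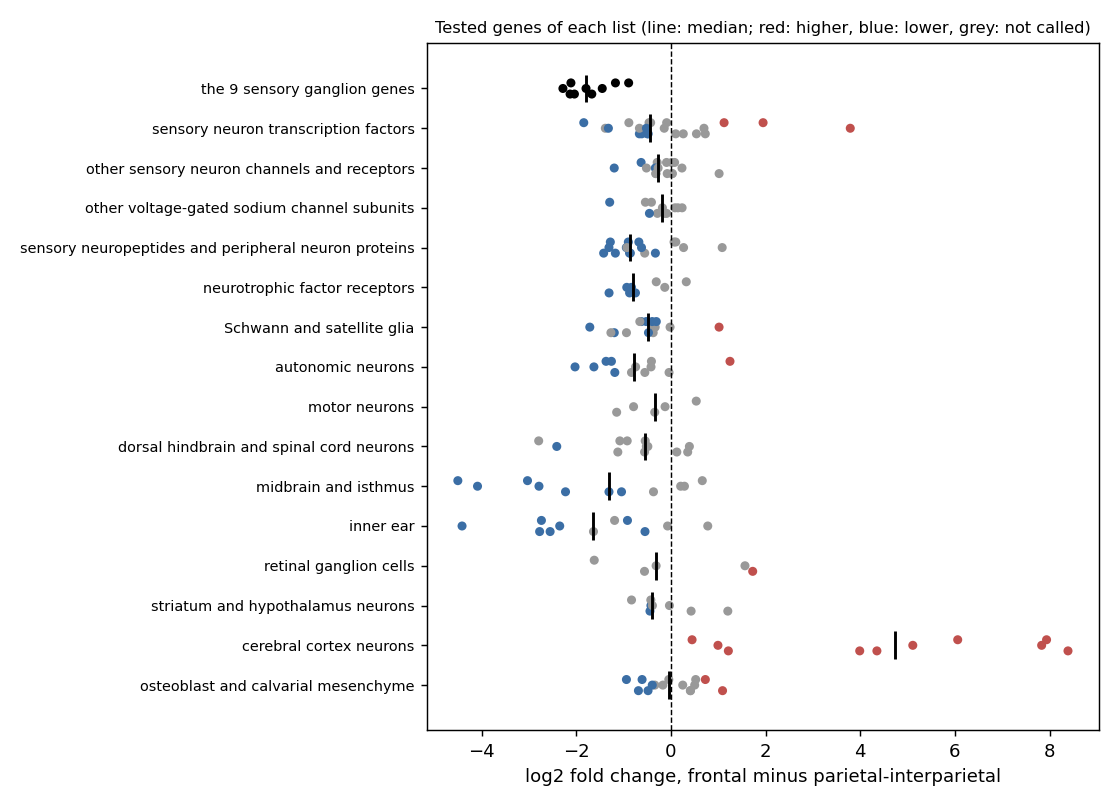
Log2 fold change, frontal minus parietal-interparietal (x axis), of every tested gene in each list (rows), with a line at the list's median. The 9 sensory ganglion genes have a median of −1.79, the inner ear list −1.64, the midbrain and isthmus list −1.31, and the cerebral cortex list 4.73.

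Genes whose values over the 4 libraries were most like the median profile of the 9 were sought among 14214 other genes. These had a mean CPM of 1 or more, and numbered gene models were left out. Likeness was the distance between log2 CPM profiles centred on each gene's mean. The 10 nearest were Rgs7bp, Serpind1, Ccl11, Fbxo2, Gata3, Slc22a8, Gbp8, Ptprr, Akr1c14 and Plekhd1. Rgs7bp, which anchors regulators of G protein signalling at the membrane, came closest, at 8.31 and 9.80 CPM in frontal, against 28.2 and 26.3 CPM in parietal-interparietal tissue. The 10 were 2.89-fold to 3.82-fold lower in frontal, and Gata3 was the 1 gene among them in any of the lists above. The 9 themselves define the profile. Isl1 lay nearer to it than any of the 14214 genes and Pou4f1 had 3 of them nearer, whereas Scn9a had 260 and Scn11a 13159. With 2 libraries a group such a profile mainly records the size of the difference between the groups.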

How the data were processed

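Poly(A) RNA of 4 libraries was sequenced. The authors deposited raw counts, 1 whole number per Ensembl gene and library; per the submitters' processing notes the tools were HISAT2 2.1.0, Trim Galore 0.6.7 and featureCounts 2.0.1, with the genome build GRCm38. Neither settings and strand nor the annotation release is given in the sources used here. Even counts made up 68.3% to 74.4% of counts of 1 to 20, so counts were also analysed halved, as for both mates of a pair counted.

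The 9 genes and the gene lists were chosen with earlier results of these data known. GENCODE gave symbols, positions and union exon lengths. Genes were filtered with filterByExpr (minimum count 10), TMM-scaled and tested with edgeR 4.0.16 in R 4.3.3 (quasi-likelihood, two-sided, group as only term, 2 residual degrees of freedom, Benjamini-Hochberg over 20947 genes, adjusted p under 0.05). The SE is the size of the log2 fold change over the square root of F. The floor of 3 counts covers counting error only. Named were the 9 genes, per list the 3 smallest p and the highest mean CPM, and the 10 nearest profiles. Genes named outside this rule (Runx1, Runx3, Maf, Scrt2, Pou4f2, Pou4f3, Ntrk3, Prph, Stmn2, Mrgprd, Trpm8, Trpa1, Sox10, Pmp22, Hand2, Mnx1, Gjb2 and the other sodium channels) were chosen after their values were seen. The variance between libraries of a group was 11.5 times that of binomial sampling in frontal and 3.30 times in parietal-interparietal libraries (genes with 200 to 4000 summed counts). Each was entered as 1 sample, as labelled. The procedure was tested on simulated counts. Alternatives were DESeq2 1.42.0, other scalings, no filter, halved counts, the replicate number as a block, the parietal-interparietal pair summed, and each library left out. Figures were drawn with matplotlib 3.10.9. Not every gene that the rule picks is named in the text, and some are not reported here.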

Additional observations from a re-analysis of the deposited data

How the results depend on the processing

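The median log2 fold change of the 9 genes lay between −1.59 and −1.85 in the 11 alternatives; their sign is fixed by how they were chosen and is no sign of stability. With the parietal-interparietal pair summed, 412 genes were called lower, 379 higher, and 16 sensory list genes lower. With 1 library left out, calls over all genes ran from 442 (without parietal-interparietal library 2) to 3796 (without frontal library 2) lower and from 423 to 3483 higher. Sensory list genes called lower ran from 14 to 36 and those higher from 3 to 10. A fit without 1 library takes its spread from the pair left whole, and the lone library is assumed to vary alike. The replicate block called 1704 genes lower and 1602 higher. Deviations of same-numbered libraries correlated at r = 0.01 over 16789 genes. With 2 libraries a group this cannot show whether same-numbered libraries share an origin, which the labels do not give. With the longest transcript as length, the order of Avil and Isl1, and that of Tlx3 and Scn9a, turned in frontal libraries. Counts of 0 to 24 limit Scn11a and Trpv1 in frontal libraries.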
